A study of Mus musculus with 3 samples.

Results

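RNA from mouse neuron cultures derived from the medial ganglionic eminence was compared between 6 h of depolarisation with KCl and the unstimulated state. The comparison uses 2 of the 3 libraries in the series, 1 at 0 h and 1 at 6 h, and values of the 1 h library are given beside them. The 1 h library also enters the scaling factors and the mean reads by which genes are split by depth. It covers every gene with at least 20 exonic reads in the 0 h or the 6 h library, which is 10095 of the 25562 genes in the deposited files. All cultures were wild type of C57Bl/6 background, prepared at embryonic day 14 from the medial ganglionic eminence (MGE), and kept for 10 days in vitro. All had been silenced overnight from day 9 with tetrodotoxin (TTX), which blocks sodium channels, and AP-5, which blocks NMDA receptors. The stimulated cultures then received 55 mM extracellular KCl, while the 0 h culture is the unstimulated control. Total RNA was depleted of ribosomal RNA before directional sequencing, so reads from unspliced transcripts were retained and intronic reads could be counted beside exonic reads.

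The MGE is the embryonic region that gives rise to many GABAergic interneurons of the cortex, among them the parvalbumin and somatostatin classes. Raised extracellular KCl depolarises neurons and opens voltage-gated calcium channels, and calcium entry activates kinases that switch on a first wave of transcription factor genes. A later wave, which is in part under the control of those factors, includes genes for secreted peptides, receptors, channels, and proteins of the synapse and the extracellular matrix.

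The 0 h and 6 h libraries had 8996897 and 8579378 mapped reads, of which 2189394 and 2480579 were sense exonic and 2123187 and 2095060 sense intronic. The labels name no second culture for either time, so no difference has a replicate check, and every interval given is a 95% interval for counting error alone. Reads are not molecules, because the libraries were amplified without molecular identifiers. A lower count in such bulk RNA may come from fewer cells of a type or from less RNA per cell, and these cannot be told apart. Of 21 markers of MGE-derived interneurons, 20 were measured, with 0 higher and 1 lower at 6 h. The summed level of the markers was 8983 RPM (scaled exonic reads relative to library size) at 0 h and 10369 at 6 h. The median log2 ratio of 6 h to 0 h over the 20 was -0.10, with 11 below 0 and 9 above. Of 13 markers of excitatory neurons, 9 had at most 3 reads in both libraries, and Slc17a7, Slc17a6, Neurod2, Emx1 and Neurog2 had 0. The 2 that were measured were Camk2a, with 209 and 175 reads, and Cux2, listed in the files as Cutl2, with 604 and 559. Of the microglial markers 12 of 14 had at most 3 reads in both libraries, and of the endothelial, mural and meningeal markers 13 of 16. Parvalbumin itself was close to absent (Pvalb, 1 read at 0 h and 0 reads at 6 h). Among 14 measured markers of astrocytes and radial glia, 1 was higher and 1 lower, with summed levels of 3218 and 3749 RPM. Their median log2 ratio was -0.04, with 8 below 0 and 6 above. Oligodendrocyte lineage markers also had 1 of 6 measured genes higher and 1 lower, with summed levels of 168 and 199 RPM. Olig2, a factor of precursors of that lineage, had 50, 59 and 108 exonic reads, and Pdgfra, a receptor on those precursors, had 90, 80 and 43. A pair of sex-linked transcripts, chosen after their values were seen, also differed between the cultures. Xist, expressed from the inactive X chromosome, had 3191, 1983 and 2119 exonic reads at 0, 1 and 6 h. Ddx3y, a Y-linked helicase gene that overlaps another gene on its strand, had 36, 88 and 134, and the part of culture composition in the other differences was not tested.

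A gene was called higher or lower when its ratio of scaled exonic reads was at least 2 or at most 0.5 and the counting interval excluded 1. Read counts are printed as deposited, and ratios are those of scaled counts. By this rule 497 genes (4.92% of 10095) were higher at 6 h and 547 genes (5.42%) were lower. The higher and the lower genes sat at different depths. Among genes with a mean of at least 60 exonic reads over the 3 libraries, 256 of 6801 (3.76%) were higher and 133 (1.96%) were lower, whereas below 60 reads 241 of 3294 (7.32%) were higher and 414 (12.6%) were lower. In the class with a mean of 300 reads or more, 71 of 1925 genes were higher and 4 were lower. These 4, singled out after their values were seen, were Ctnnb1, Arrdc3, Slc4a8 and Ppap2b. Ctnnb1, which encodes beta-catenin of adherens junctions and Wnt signalling, had 1148, 477 and 449 exonic reads at 0, 1 and 6 h (2.70-fold lower at 6 h, interval 2.42 to 3.02), so that its count was already low at 1 h. Its introns had 192, 196 and 163 reads, with an intronic interval that includes 1 (1.05-fold lower, 0.848 to 1.30). Ppap2b, a lipid phosphate phosphatase, had 383, 365 and 192 exonic reads (2.11-fold lower, 1.77 to 2.52), and the other two are described below with their groups. The genes called lower had a median of 44 exonic reads at 0 h and 18 at 6 h, against 31 and 105 for the genes called higher. Exon length differed little between them, with medians of 3058 bp for higher, 2931 bp for lower and 2967 bp for all measured genes, while median intron length was 27164, 18015 and 22336 bp.

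**Figure D1:**
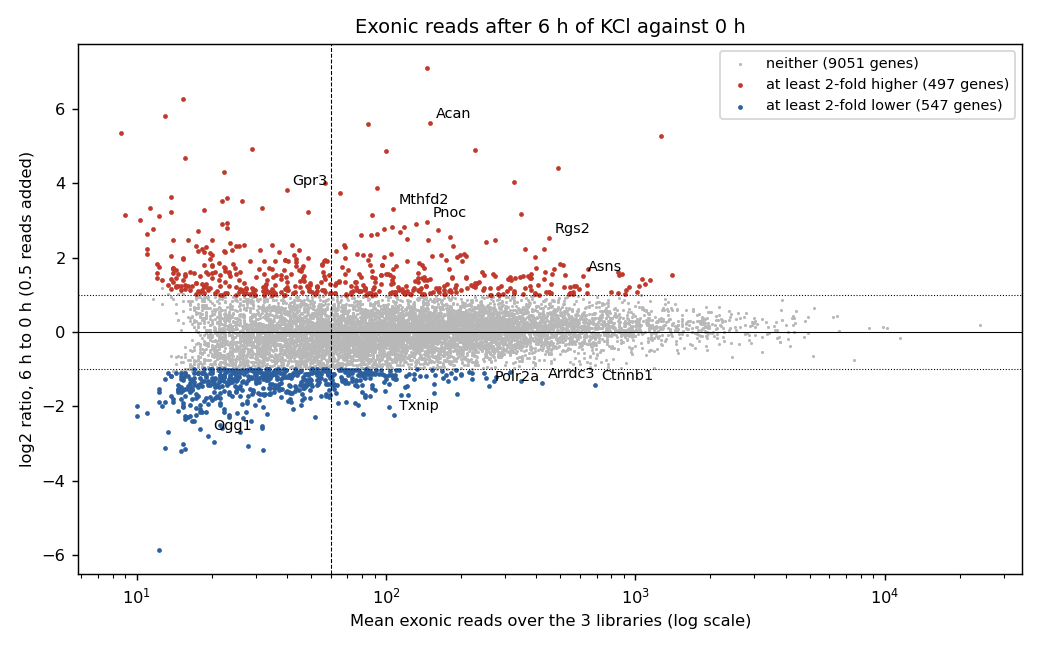
Log2 ratio of scaled exonic reads at 6 h to those at 0 h (vertical axis) against the mean exonic reads over the 3 libraries (horizontal axis, log scale), 1 point per measured gene, with called genes coloured. Lower genes crowd the left side, where counts are small, and 4 of the 547 have a mean of 300 reads or more.

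Scaling set where 0 lies. The main values used edgeR's TMM factors, and total exonic reads or the authors' own coverage in their place shifted the median log2 ratio of all genes by -0.10 or 0.15. With coverage the calls were 678 higher and 380 lower, so the higher share went from 47.6% to 64.1%, and with total exonic reads they were 402 and 726, a higher share of 35.6%. List medians within about 0.15 of 0 are therefore given as values, with no direction.

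Promoter sequences are shown first for some of the higher genes whose windows hold a full cyclic AMP response element or a CArG box. These are the motifs bound by CREB and by serum response factor. The full element was found in 14 higher and 12 lower genes, and a CArG box in 11 and 2. The genes printed are a selection of the higher ones. Windows of 250 bases before and 50 after the annotated start came from RefSeq (GRCm38.p6) and were found for 386 of the higher genes, 431 of the lower genes and 8017 of all measured genes. Each sequence is written 5′ to 3′ on the gene's own strand, with the motif in capitals. The response element TGACGTCA lay 50 bases before the start of Sstr2, a somatostatin receptor gene (chr11:113619249-113619296, plus strand), and 46 bases before that of Mlf1, a myeloid leukaemia factor gene (chr3:67374023-67374070, plus strand). It lay 70 bases before the start of Pcsk1, a prohormone convertase gene (chr13:75089759-75089806, plus strand), and 104 bases before that of Cartpt, a neuropeptide gene (chr13:99900768-99900815, minus strand).
Sstr2: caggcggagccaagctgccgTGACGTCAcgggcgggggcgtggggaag
Mlf1: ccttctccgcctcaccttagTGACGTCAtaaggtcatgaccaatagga
Pcsk1: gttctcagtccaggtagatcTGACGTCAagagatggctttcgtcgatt
Cartpt: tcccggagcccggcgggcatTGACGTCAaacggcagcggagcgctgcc
The CArG boxes shown are those of Srf, the gene for serum response factor itself, with 2 matches (chr17:46556195-46556264, minus strand), and of Cnn2, an actin-binding calponin (chr10:79988524-79988573, plus strand). Also shown are those in Myo1e, a membrane-linked myosin (chr9:70207298-70207347, plus strand), and in Myadm, a membrane raft protein (chr7:3292817-3292866, plus strand).
Srf: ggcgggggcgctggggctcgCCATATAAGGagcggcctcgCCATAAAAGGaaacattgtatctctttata
Cnn2: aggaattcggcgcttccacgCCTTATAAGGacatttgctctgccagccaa
Myo1e: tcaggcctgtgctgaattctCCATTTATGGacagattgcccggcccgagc
Myadm: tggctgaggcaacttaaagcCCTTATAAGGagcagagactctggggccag

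These motifs were searched on either strand of the 250 bases before the start. The part of each window after the start was not searched, so the shares below describe upstream sequence only. A CArG box was present in 2.85% of the higher genes (11 genes), 0.464% of the lower genes (2 genes), 1.28% of all measured genes and 1.47% of all 32851 promoters. The gene shares count a gene with a match in any of its promoters. The last share counts single promoters, so it is not directly comparable with the others. The AP-1 motif TGANTCA was present in 7.51%, 4.41%, 4.96% and 6.75% of the same sets. The full element TGACGTCA was in 3.63%, 2.78%, 3.43% and 1.55%. Its first 5 letters TGACG, which every full element also contains, were found in 36.5%, 29.9%, 32.3% and 17.8%. The EGR motif GCGNGGGCG was found in 14.5%, 9.28%, 11.9% and 4.70%. A match describes the letters in a window and says nothing of binding.

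Of the genes printed for their response element, Pcsk1 had 28, 63 and 204 exonic reads at 0, 1 and 6 h (6.89-fold, 4.63 to 10.6), and Cartpt had 0, 5 and 21, which is at least 6.62-fold higher when 3 reads stand for the 0. The printed genes with CArG boxes were picked from the higher genes. Cnn2 had 1, 6 and 40 exonic reads at 0, 1 and 6 h, a 37.8-fold ratio whose interval runs from 6.41 to 1531 because the 0 h library held a single read. Srf had 56, 194 and 151 reads (2.55-fold, interval 1.86 to 3.53), so its highest count was at 1 h. Myo1e had 30, 22 and 114 reads (3.59-fold, 2.39 to 5.57) and Myadm 51, 73 and 123 (2.28-fold, 1.63 to 3.23), and in both the highest count was at 6 h. Srf and Myo1e were chosen after their values were seen.

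Function lists were used to describe what the higher and the lower genes share. They comprised 63 lists of function and 7 of cell type markers, and a further 7 function lists written after the values had been seen. Of the called genes, 248 of the 497 higher and 200 of the 547 lower fell in at least 1 function list. The counts of each list are read beside the background of 4.92% higher and 5.42% lower.

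Early transcription factors had the highest share of higher genes of any list, 13 of 18 (72.2%). By number, the largest count of higher genes in any list, 18 of the 497, was in a list of amino acid supply. This list holds amino acid and one-carbon enzymes, amino acid transporters and target genes of the stress factor ATF4. In it 18 of 43 measured genes (41.9%) were higher and 0 lower, with a median log2 ratio of 0.91. The list was written after the values were seen, so its count is a description. Among its members with a mean of at least 60 reads, 14 of 34 (41.2%) were higher.

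Mthfd2, a mitochondrial enzyme of one-carbon metabolism (mm9, chromosome 6, 83255700 to 83267598), had 23, 51 and 245 exonic reads at 0, 1 and 6 h. Its 6 h count was 10.1 times that at 0 h after scaling (6.56 to 16.2). Asns, asparagine synthetase (chromosome 6, 7625171 to 7643182), had 356, 428 and 1063 reads (2.82-fold, 2.50 to 3.19). In both genes the 6 h library stood above the other 2. Atf4, the factor that gives the list its name, had 386, 1012 and 1186 reads (2.91-fold, 2.59 to 3.27), most of the difference from 0 h being present in the 1 h library. Chac1, which degrades glutathione, had 35, 56 and 264 (7.13-fold, 5.00 to 10.5). The amino acid transporters Slc38a2, with 252, 355 and 933 reads (3.50-fold, 3.04 to 4.04), and Slc7a1, with 261, 187 and 848 (3.07-fold, 2.67 to 3.54), were higher at 6 h than in either other library.

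Serine synthesis was represented by Psph, which makes serine from phosphoserine, with 44, 82 and 163 reads (3.50-fold, 2.50 to 5.01). Psat1, the enzyme 1 step before it, stood at 374, 367 and 626 (1.58-fold, 1.39 to 1.80) and did not reach the 2-fold limit. Ddit3, a factor induced in prolonged stress of the endoplasmic reticulum, had 39, 57 and 59 reads (1.43-fold, 0.939 to 2.20), an interval that includes 1. The lowest member of the list was Cbs, which feeds homocysteine into cysteine synthesis, at 53, 38 and 33 reads (1.70-fold lower, 1.08 to 2.71). These 4 genes were chosen after their values were seen. By introns 13 of the 37 list members measured there were higher and 0 lower, beside 5.27% higher and 5.59% lower of all genes with measured introns. The wider list of heat shock and unfolded protein response genes had 5 of 81 members higher and 3 lower. Asns, Atf4 and Chac1 are among those 5 and belong to both lists.

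**Figure D2:**
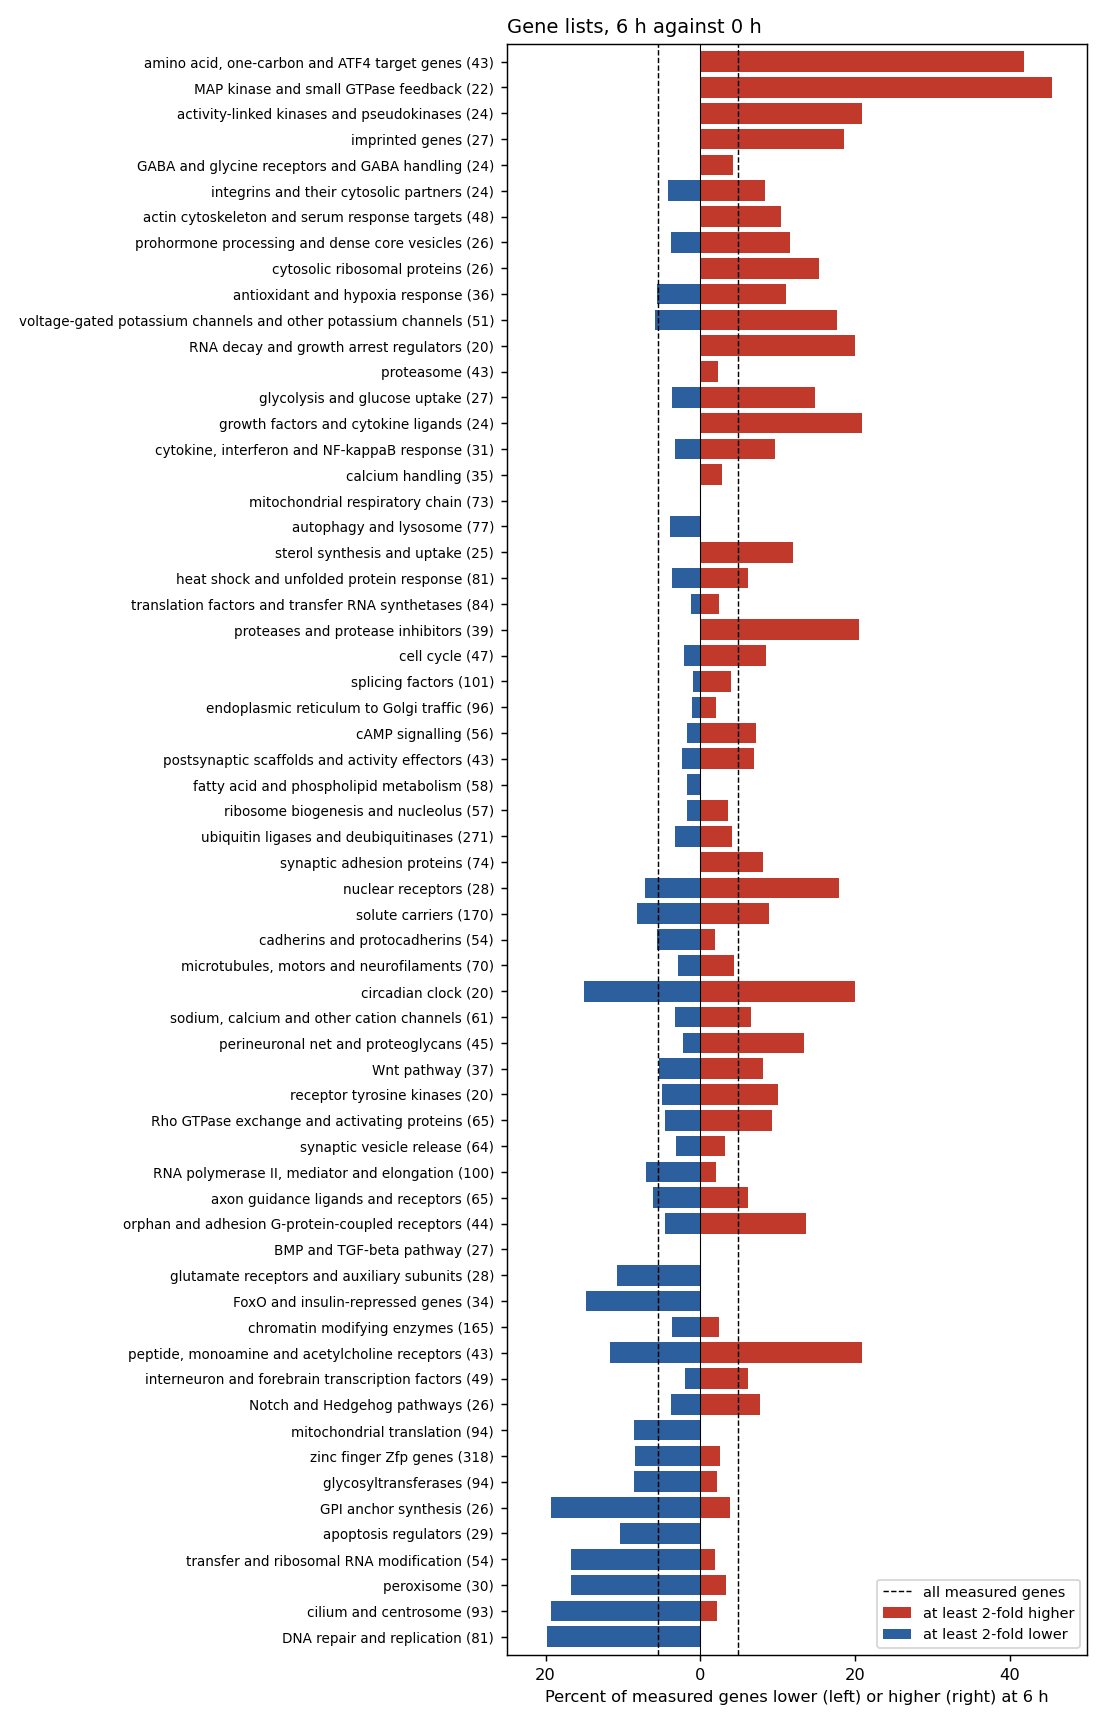
Percentage of measured members called higher (right) and called lower (left) in each function list with at least 20 measured genes (number in brackets), ordered by median log2 ratio, with dashed lines at 4.92% and 5.42% for all measured genes. Lists of amino acid supply and MAP kinase feedback extend to the right with 0 members lower, and DNA repair and cilium lists extend to the left.

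Negative regulators of MAP kinase and small GTPase signalling were higher at 6 h in 10 of 22 measured members (45.5%), with 0 lower and a median log2 ratio of 0.85. From a mean of 60 reads 4 of 13 (30.8%) were higher, at a median of 0.38. Such regulators switch off the kinase cascades that calcium entry turns on. Dusp4, a nuclear phosphatase of MAP kinases, had 34, 87 and 274 exonic reads at 0, 1 and 6 h (7.62-fold, 5.32 to 11.2), highest at 6 h. Dusp6, a cytosolic ERK phosphatase, had 26, 272 and 188 (6.84-fold, 4.52 to 10.7), highest at 1 h. Spry4, a Sprouty inhibitor of receptor tyrosine kinase signalling, had 9, 44 and 93 (9.77-fold, 4.93 to 22.0). Rem2, a small GTPase that inhibits calcium channels, had 13, 41 and 72 (5.24-fold, 2.88 to 10.3). Dusp6 was thus highest at 1 h and the other named members at 6 h.

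Kinases and pseudokinases linked to activity were higher in 5 of 24 genes (20.8%) and lower in 0. Sik1, a salt-inducible kinase of the CREB coactivator pathway listed in the files as Snf1lk, had 107, 391 and 322 reads (2.85-fold, 2.28 to 3.58). Trib1, a pseudokinase that brings ubiquitin ligase to its targets, had 22, 95 and 144 (6.19-fold, 3.94 to 10.2). Map3k5, the stress kinase ASK1, had 29, 28 and 117 (3.82-fold, 2.52 to 5.94), with the 1 h count close to that at 0 h. Regulators of G-protein signalling, which shorten the active state of G-alpha subunits, were higher in 3 of 10. Rgs2 had 147, 310 and 895 reads (5.76-fold, 4.83 to 6.90) and Rgs4 had 269, 470 and 823 (2.89-fold, 2.52 to 3.33), and both were highest at 6 h.

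RNA decay and growth arrest regulators were higher in 4 of 20 and lower in 0. Ifrd1, a transcriptional coregulator, had 66, 234 and 295 exonic reads (4.23-fold, 3.23 to 5.61). Nab1, a corepressor of EGR factors, had 41, 75 and 249 (5.74-fold, 4.11 to 8.20). Zc3h12c, a member of the Regnase family of RNA-degrading proteins that stood in none of the lists, had 135, 272 and 673 (4.71-fold, 3.91 to 5.71). In the cyclic AMP list 4 of 56 were higher and 1 lower. Crem, which encodes CREB-related activators and repressors, had 29, 53 and 123 reads (4.01-fold), and Pde4d, a cyclic AMP phosphodiesterase gene that overlaps another on its strand, had 324, 426 and 795 (2.32-fold). The lower member was Pde2a, another phosphodiesterase, with 276, 230 and 138 reads (2.11-fold lower).

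**Figure D3:**
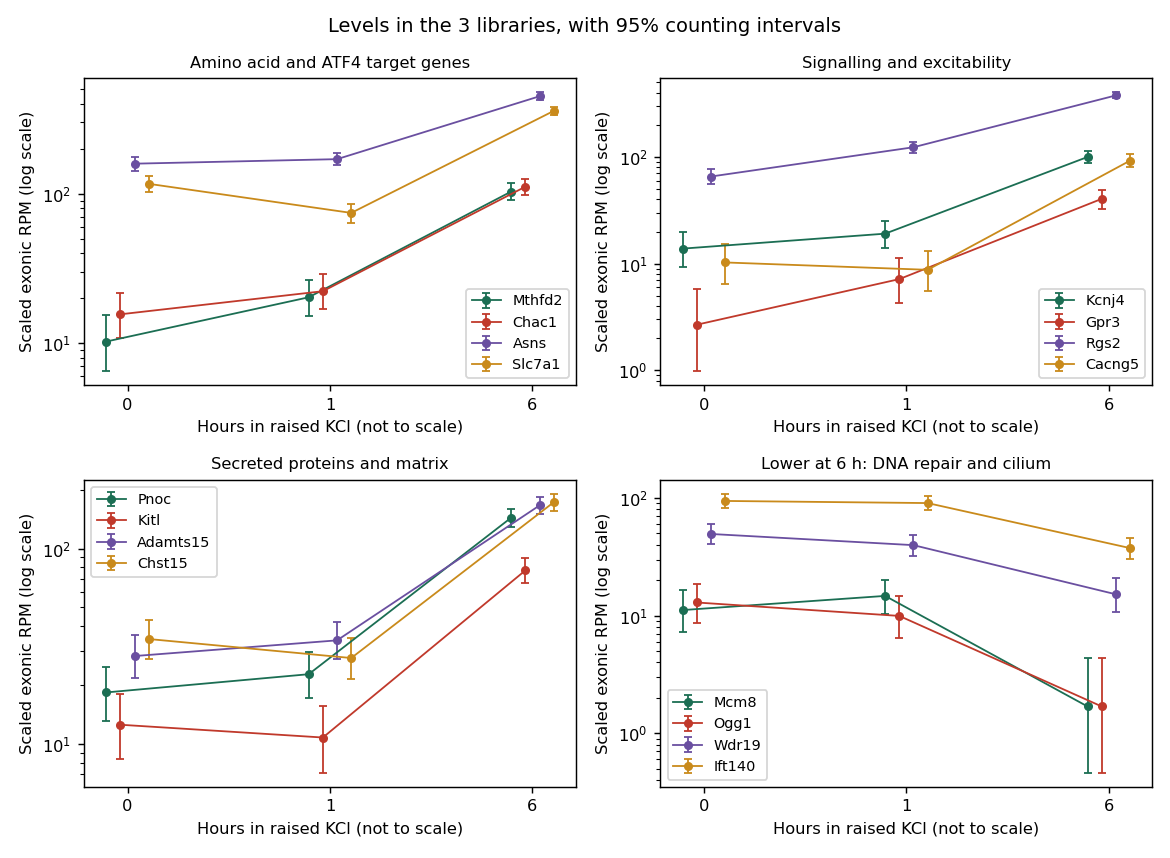
Scaled exonic RPM (log axis) of 12 higher and 4 lower genes at 0, 1 and 6 h, 1 library per time, with 95% counting intervals as bars and times spaced evenly. In all 16 genes drawn the 1 h point lies nearer to the 0 h point than to the 6 h point.

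Receptors for peptides and other ligands, and orphan receptors, were called on both sides of the comparison. Of the 43 measured receptors for peptides, monoamines and acetylcholine, 9 were higher (20.9%) and 5 lower (11.6%), or 10 and 2 with the authors' coverage. Among orphan and adhesion receptors 6 of 44 were higher (13.6%) and 2 lower (4.55%), beside 4.92% and 5.42% of all genes. Gpr3, a constitutively active receptor that raises cyclic AMP, had 6, 18 and 96 exonic reads at 0, 1 and 6 h (15.1-fold, 6.70 to 42.3). Gpr26, an orphan receptor, had 250, 305 and 943 (3.57-fold, 3.10 to 4.12), and Gpr22 had 89, 149 and 391 (4.15-fold, 3.29 to 5.29). In these 3 receptors the 6 h count was the highest of the libraries.

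Among receptors with known ligands, Calcrl, the receptor of the calcitonin gene-related peptide family, had 5, 8 and 66 reads (12.5-fold, 5.09 to 39.7). Chrm5, a muscarinic receptor, had 2, 6 and 26 (12.3-fold, 3.08 to 107). Tacr3, which binds neurokinin B, had 8, 16 and 47 reads (5.56-fold, 2.60 to 13.6), and the related substance P receptor Tacr1 differed in the other direction, with 23, 6 and 11 (2.21-fold lower, 1.04 to 5.02). The neuropeptide Y receptors also split. Npy1r had 11, 14 and 37 reads (3.18-fold, 1.59 to 6.91), while Npy2r had 50, 54 and 19 (2.78-fold lower, 1.61 to 5.00). Adra2a, an inhibitory noradrenaline receptor, had 46, 41 and 18 (2.70-fold lower, 1.54 to 4.95). Chrna7, the subunit of an acetylcholine-gated ion channel, had 58, 48 and 132 (2.15-fold, 1.57 to 2.98). Of the calls in the list of ligand receptors, 1 of the 9 higher and 0 of the 5 lower genes had a mean of at least 60 reads, and most intervals are wide. Below 60 reads 8 of 32 (25.0%) were higher and 5 (15.6%) lower, beside 7.32% and 12.6% of all genes at that depth. Tacr3, Npy1r and Chrna7 were chosen after their values were seen.

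Potassium channels were higher in 9 of 51 measured genes (17.6%) and lower in 3, with a median log2 ratio of 0.25, or in 15 and 2 with the authors' coverage. Kcnj4, an inward rectifier of neurons, had 31, 48 and 237 reads (7.23-fold, 4.96 to 10.9). Kcnk9, a TASK leak channel, had 64, 96 and 246 (3.63-fold, 2.75 to 4.86), and Kcnn2, a small-conductance calcium-activated channel, had 35, 27 and 107 (2.89-fold, 1.96 to 4.36). Kcnmb2, an auxiliary subunit of large-conductance calcium-activated channels, had 13, 19 and 53 (3.86-fold, 2.07 to 7.71). These span leak, rectifier and calcium-activated types. Kcnk9, Kcnn2 and Kcnmb2 were chosen after their values were seen. On the lower side Kcnj10, the inward rectifier typical of glia, had 98, 76 and 44 reads (2.36-fold lower, 1.63 to 3.44). Glutamate receptors and their auxiliary subunits had 0 of 28 members higher and 3 lower. Among them Shisa6, an AMPA receptor partner listed in the files as Gm879, had 230, 134 and 109 (2.23-fold lower, 1.77 to 2.83). GABA and glycine receptors and GABA handling had 1 of 24 higher and 0 lower, and synaptic vesicle release had 2 of 64 in each direction.

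Secreted proteins and the enzymes that process the matrix formed a further set. Growth factors and cytokine ligands were higher in 5 of 24 (20.8%) and lower in 0, and proteases and their inhibitors in 8 of 39 (20.5%) and 0. From a mean of 60 reads these were 3 of 13 and 3 of 22. Kitl, the ligand of the receptor Kit, had 28, 27 and 183 exonic reads at 0, 1 and 6 h (6.18-fold, 4.14 to 9.56), and its intronic interval included 1 (1.48-fold, 0.780 to 2.83). Gdf10, a member of the TGF-beta superfamily, had 66, 67 and 184 (2.64-fold, 1.98 to 3.55). In both genes the 0 h and 1 h counts lay close together and the 6 h count stood apart. Adamts15, a metalloprotease that cleaves proteoglycans, had 63, 85 and 394 (5.91-fold, 4.52 to 7.84), and Adamts1, a related protease, had 64, 170 and 191 (2.82-fold, 2.12 to 3.81).

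The list of perineuronal net and proteoglycan genes had 6 of 45 members higher (13.3%) and 1 lower. Chst15, a sulphotransferase that makes chondroitin sulphate E and is listed in the files as 4631426J05Rik, had 77, 69 and 409 reads (5.02-fold, 3.93 to 6.49). Hs3st1, a heparan sulphate sulphotransferase, had 131, 172 and 427 (3.08-fold, 2.53 to 3.78). Gpc4, a glypican that carries heparan sulphate at the cell surface, had 34, 56 and 153 (4.26-fold, 2.92 to 6.37). Has3, which makes the hyaluronan backbone of the nets, had 55, 75 and 191 (3.28-fold, 2.42 to 4.52). The named members thus make or carry sulphated and unsulphated glycans of the matrix. Collagens and laminins were higher in 3 of 18 and lower in 0, among them Col12a1, a collagen of fibril surfaces, with 10, 10 and 55 reads (5.20-fold).

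Synaptic adhesion proteins had 6 of 74 members higher (8.11%) and 0 lower. Lrrc4, the netrin-G ligand NGL-2 of excitatory synapses, had 219, 285 and 641 reads (2.77-fold, 2.37 to 3.24). Lrrtm1, a postsynaptic partner of neurexins, had 41, 100 and 123 (2.84-fold, 1.98 to 4.14), and Flrt3, a ligand of latrophilins and of the Unc5 receptors, had 147, 174 and 361 (2.32-fold, 1.91 to 2.83). The 3 named proteins all carry leucine-rich repeats. Axon guidance genes were balanced, with 4 of 65 higher and 4 lower. Nrp1, the semaphorin coreceptor, had 98, 98 and 338 (3.26-fold, 2.60 to 4.13), and Sema3e, a secreted semaphorin, had 8, 15 and 37 (4.37-fold). Cadherins and protocadherins had 1 of 54 higher and 3 lower.

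Proteins that link the membrane to the cell cortex gave the list with the second highest share of higher genes. In the list of annexins, caveolae and cortical actin linkers, written after the values were seen, 10 of 18 (55.6%) were higher and 0 lower, with a median log2 ratio of 1.10. From a mean of 60 reads 4 of 11 (36.4%) were higher at a median of 0.48, and with the whole interval beyond 2-fold 1 of the 18 was. Cd44, a hyaluronan receptor tied to the cortex, had 25, 43 and 102 exonic reads (3.86-fold, 2.47 to 6.24), while its introns had 247, 264 and 246. Anxa2, an annexin that links membrane to actin, had 24, 25 and 76 (2.99-fold, 1.87 to 4.96), and Ahnak, a giant scaffold of the annexin complex, had 49, 46 and 133 (2.57-fold, 1.84 to 3.64). Several of these genes are also abundant in glia and in cells of vessels and meninges. The summed level of astrocyte and radial glia markers was 3218 RPM at 0 h and 3749 at 6 h, although 8 measured markers had log2 ratios below 0 and 6 above. Endothelial, mural and meningeal markers had 15.6 and 13.9 RPM. The part of these cell types in the list was not tested. The list of actin cytoskeleton and serum response targets had 5 of 48 higher (10.4%) and 0 lower, and from a mean of 60 reads 1 of 35 (2.86%, beside 3.76% of all genes). Tpm4, a tropomyosin, had 18, 28 and 82 reads (4.31-fold), and Cnn3, a calponin, had 83, 124 and 232 (2.64-fold).

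Imprinted genes, a list also written after the values were seen, had 5 of 27 members higher (18.5%) and 0 lower. Peg10, a gene derived from a retrotransposon, had 194, 320 and 680 reads (3.31-fold, 2.82 to 3.91), and Mest had 596, 764 and 1457 (2.31-fold, 2.10 to 2.55). Impact, which restrains the amino acid sensing kinase GCN2, had 325, 561 and 817 (2.38-fold, 2.09 to 2.71). The intron ratios of Mest (1.28-fold) and Impact (1.37-fold) were below 2. Peg12 had 2, 7 and 32 reads (15.1-fold, 3.86 to 130.3).

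Metabolic lists differed from each other. Sterol synthesis and uptake had 3 of 25 higher and 0 lower, and 1 higher with total exonic reads. Cyp51, the sterol demethylase, had 571, 1279 and 1593 reads (2.64-fold, 2.40 to 2.91), and Sqle, squalene epoxidase, had 336, 570 and 723 (2.03-fold). In glycolysis and glucose uptake 4 of 27 were higher and 1 lower, with Slc2a3, the neuronal glucose transporter, at 494, 636 and 1532 (2.93-fold). Fatty acid and phospholipid metabolism had 0 of 58 higher and 1 lower, and the mitochondrial respiratory chain had 0 of 73 in either direction at a median log2 ratio of 0.17.

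The clock and the nuclear receptors showed members on both sides. Of 20 clock genes 4 were higher and 3 lower. The lower ones were 3 of the 10 with a mean below 60 reads (30.0%, beside 12.6% of all genes), with 0 of 10 from 60. Per1 and Per2, repressors of the clock that respond to CREB, had 102, 298 and 258 reads (2.39-fold) and 11, 41 and 45 reads (3.87-fold). Nfil3, a repressor acting on D-box elements, had 50, 98 and 181 (3.42-fold). Its counterpart on those elements, the activator Dbp, had 27, 31 and 7 (4.08-fold lower, 1.73 to 11.1), and Per3 had 47, 37 and 12 (4.14-fold lower, 2.16 to 8.58). Among 28 nuclear receptors 5 were higher and 2 lower. The lower ones were 2 of the 15 with a mean below 60 reads (13.3%, beside 12.6% of all genes), with 0 of 13 from 60. With counts divided by the reads per distinct position, 0 of the 28 were lower. Outside the Nr4a family, Thrb, a thyroid hormone receptor, had 9, 17 and 34 (3.57-fold) and Nr3c2, the mineralocorticoid receptor, had 23, 29 and 10 (2.43-fold lower).

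Among lists with at least 50 measured genes, lower calls were most frequent in those of DNA repair, the cilium and RNA modification. In DNA repair and replication 16 of 81 measured genes (19.8%) were lower and 0 higher, at a median log2 ratio of -0.41. In the cilium and centrosome list 18 of 93 (19.4%) were lower and 2 higher, also at -0.41. These lists hold many genes with few reads, where lower calls were more frequent among all genes. Among members with a mean of at least 60 reads, 3 of 31 DNA repair genes (9.68%) and 6 of 43 cilium genes (14.0%) were lower, beside 1.96% of all genes at that depth. Below 60 reads the shares were 26.0% and 24.0%, beside 12.6%. The median log2 ratios of the DNA repair and cilium lists from a mean of 60 reads were -0.15 and -0.27, beside 0.05 for all genes. The first of these lies at the edge of the range given above without a direction. Below 60 reads the medians were -0.71 and -0.47, beside -0.14.

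**Figure D4:**
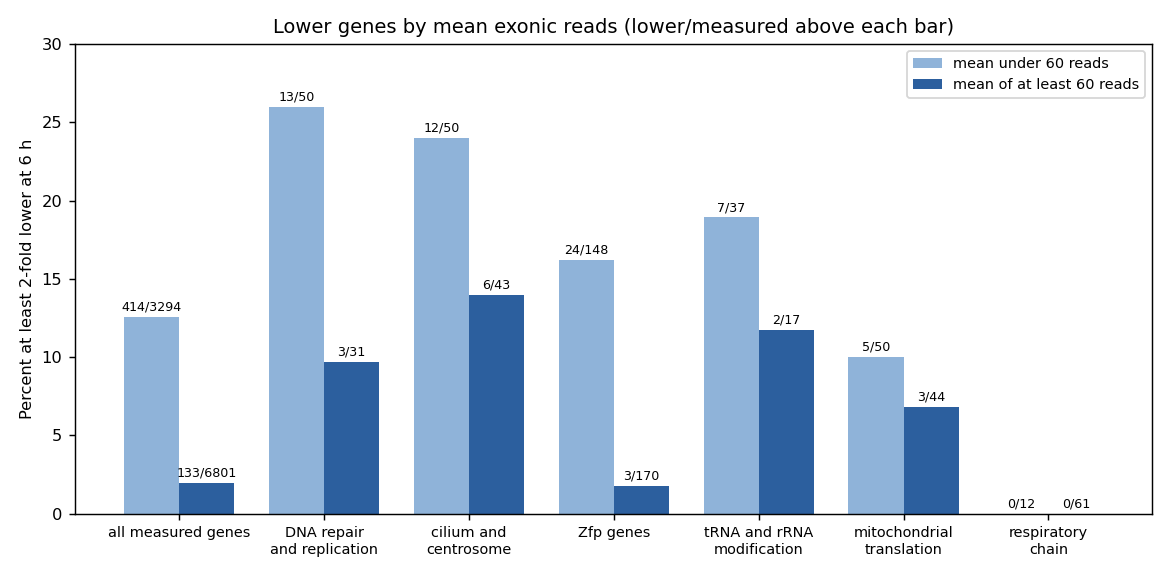
Percentage of measured genes called lower at 6 h in selected lists and in all genes, split at a mean of 60 exonic reads over the 3 libraries. DNA repair and cilium genes are above all genes in both classes, and zinc finger genes (1.76%) are close to all genes (1.96%) in the class with more reads.

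Ogg1, the glycosylase that removes oxidised guanine, had 29, 25 and 4 exonic reads at 0, 1 and 6 h (7.67-fold lower, 2.69 to 30.0). Mcm8, a helicase of recombination repair, had 25, 37 and 4 (6.61-fold lower, 2.28 to 26.1). In both the 1 h count was near or above that at 0 h and the 6 h count was the lowest. Wrn, the Werner syndrome helicase, had 82, 65 and 35 (2.48-fold lower, 1.65 to 3.79), and its introns had 150, 74 and 46 (2.91-fold lower). Rad50, which holds broken ends together, had 32, 15 and 9 exonic reads (3.76-fold lower, 1.75 to 8.96) and 36, 4 and 5 intronic reads (6.42-fold lower). Wrn and Rad50 were chosen after their values were seen. Over the 66 members with measured introns, 18 were lower in introns and 2 higher, beside 5.59% lower and 5.27% higher of all genes with measured introns. The intronic calls of the list were not split by read depth. Markers of dividing cells, which also use this machinery, had 1 of 11 higher and 1 lower with a summed level of 250 and 228 RPM, and their part in the list was not tested.

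Wdr19, a subunit of the intraflagellar transport machinery, had 111, 100 and 36 exonic reads (3.26-fold lower, 2.22 to 4.89). Ift140, of the same retrograde transport complex, had 212, 228 and 89 (2.52-fold lower, 1.96 to 3.26). Ofd1, a protein of the basal body, had 52, 26 and 15 (3.67-fold lower, 2.03 to 7.01), with introns at 88, 40 and 28. The Bardet-Biedl genes Bbs12 (25, 18 and 5 reads), Bbs7 (63, 65 and 24) and Bbs2 (93, 95 and 40) were 5.29-fold, 2.78-fold and 2.46-fold lower. Another Bardet-Biedl gene, Bbs5, was called higher (2.26-fold), and the highest ratio in the list was that of Arl13b. The lower members thus include transport subunits, basal body proteins and cargo adaptors of the cilium. Ift140, Bbs7, Bbs2 and Bbs5 were chosen after their values were seen. In contrast microtubules, motors and neurofilaments had 3 of 70 higher and 2 lower. Of genes with a known ciliary role outside the list, Rsph4a, a radial spoke protein listed in the files as Rshl3, was higher, with 4, 8 and 54 reads (12.8-fold, 4.71 to 48.5).

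Zinc finger genes of the Zfp, Zbtb and related families had 27 of 318 members lower (8.49%) and 8 higher, or 17 and 11 with the authors' coverage. Most of the lower ones had few reads, with 24 of 148 (16.2%) lower below a mean of 60 reads and 3 of 170 (1.76%) from 60. Zfp641 had 57, 56 and 14 reads (4.31-fold lower), and Zfp809, which silences retroviruses in stem cells, had 20, 17 and 2 (10.6-fold lower). The higher members included Zfp143, an activator of promoters of small nuclear RNA genes, with 31, 35 and 102 (3.11-fold).

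Enzymes that modify or process transfer and ribosomal RNA were lower in 9 of 54 (16.7%) and higher in 1, and from a mean of 60 reads in 2 of 17 (11.8%). Nsun3, which methylates a mitochondrial transfer RNA, had 62, 56 and 23 reads (2.85-fold lower, 1.74 to 4.82), and Trub2, a pseudouridine synthase, had 99, 87 and 42 (2.49-fold lower, 1.72 to 3.67). Mitochondrial translation was lower in 8 of 94 (8.51%) and higher in 0, or 4 and 1 with the authors' coverage. Its lower shares were 10.0% below a mean of 60 reads, beside 12.6% of all genes, and 6.82% from 60, beside 1.96%. Its lower members included Mrrf, a ribosome recycling factor, with 20, 25 and 4 (5.29-fold lower, 1.77 to 21.3). Both of these lists were written after the values were seen. The list of translation factors and transfer RNA synthetases had 2 of 84 higher and 1 lower, and cytosolic ribosomal proteins had 4 of 26 higher and 0 lower. All 4 of those ribosomal genes had a mean below 60 reads, and 0 of the 26 were higher with the whole interval beyond 2-fold.

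Glycan and lipid anchor synthesis showed lower members at small counts. Glycosyltransferases had 8 of 94 lower (8.51%) and 2 higher (4 and 3 with the authors' coverage), GPI anchor synthesis 5 of 26 lower (19.2%) and 1 higher, and peroxisomal genes 5 of 30 lower (16.7%) and 1 higher, the last 2 lists being written after the values were seen. With a mean of at least 60 reads, 2 of 60 glycosyltransferases, 0 of 11 GPI genes and 1 of 19 peroxisomal genes were lower. B3galt6, which builds the linker of proteoglycan chains, had 66, 63 and 20 exonic reads (3.49-fold lower, 2.09 to 6.08). Pigl, an early enzyme of the GPI pathway, had 29, 31 and 5 (6.13-fold lower, 2.35 to 20.3), and Acox3, a peroxisomal oxidase, had 61, 51 and 25 (2.58-fold lower, 1.60 to 4.29). In these 3 genes the 1 h count stayed near that at 0 h.

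RNA polymerase II, its mediator and its elongation factors had 7 of 100 members lower and 2 higher, close to the background. The lower ones include the largest subunit of the enzyme. Polr2a (chromosome 11, 69547912 to 69571725) had 342, 302 and 131 exonic reads (2.76-fold lower, 2.25 to 3.40), while its introns had 42, 66 and 24 (1.56-fold lower, 0.923 to 2.69). Supt3, a subunit of the SAGA coactivator listed in the files as Supt3h, had 54, 34 and 12 (4.76-fold lower, 2.51 to 9.77). The higher members were Ell2, an elongation factor, with 33, 43 and 95 reads (2.72-fold), and Med31, a mediator subunit, with 22, 51 and 56 (2.41-fold). Polr2a was also the 1 called gene among 14 housekeeping reference genes. Chromatin modifying enzymes had 4 of 165 higher and 6 lower, among them Hdac9, a class II deacetylase, with 256, 278 and 884 reads (3.27-fold, 2.84 to 3.77), and Ezh1, a polycomb methyltransferase, with 120, 126 and 53 (2.39-fold lower).

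Genes that FoxO factors induce and insulin represses were lower in 5 of 34 (14.7%) and higher in 0, or 4 and 2 with the authors' coverage. Arrdc3, an arrestin-related adaptor, had 533, 518 and 216 exonic reads (2.61-fold lower, 2.22 to 3.07), with the 1 h count close to that at 0 h, and its introns had 133, 89 and 73. Apoptosis regulators had 3 of 29 lower and 0 higher, all 3 with a mean below 60 reads. Hrk, a BH3-only activator of cell death in neurons, had 55, 78 and 26 (2.24-fold lower), with its highest count at 1 h. Autophagy and lysosome genes had 0 of 77 higher and 3 lower.

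Solute carriers were called in both directions, 15 of 170 higher (8.82%) and 14 lower (8.24%). With the authors' coverage these were 18 and 10, with total exonic reads 10 and 15, and from a mean of 60 reads 12 and 7 of 118. Beside the amino acid and glucose transporters, the higher ones included Slc16a1, a lactate transporter, with 77, 102 and 173 reads (2.12-fold), and Slc7a11, the cystine importer, with 239, 215 and 525 (2.08-fold). The lower ones included Slc43a2, a transporter of large neutral amino acids, with 187, 203 and 75 (2.64-fold lower), and Slc4a8, a sodium-driven bicarbonate exchanger, with 472, 375 and 199 (2.51-fold lower). Ubiquitin ligases and deubiquitinases had 11 of 271 higher and 9 lower, or 15 and 3 with the authors' coverage. The BMP and TGF-beta pathway had 0 of 27 in either direction. Splicing factors (4 of 101 higher, 1 lower), the proteasome (1 of 43 higher, 0 lower) and traffic from the endoplasmic reticulum to the Golgi (2 of 96 higher, 1 lower) held few calls.

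Introns, which report on transcripts not yet spliced, were compared in the same way for 8236 genes. By the same rule 434 genes (5.27%) were higher and 460 (5.59%) lower at 6 h. Of the 497 genes with higher exons 343 had measured introns, and of these 161 were higher by introns, 182 neither and 0 lower, with a median intronic log2 ratio of 0.97. Of the 547 genes with lower exons 297 had measured introns, and of these 80 were lower by introns, 216 neither and 1 higher, with a median of -0.66. Among all 7452 genes measured by both, 5.19% were higher and 4.32% lower by introns. Across these genes, which are not independent replicates and share their libraries, Pearson's r of the exonic and intronic log2 ratios was 0.59 and Spearman's rho 0.52.

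**Figure D5:**
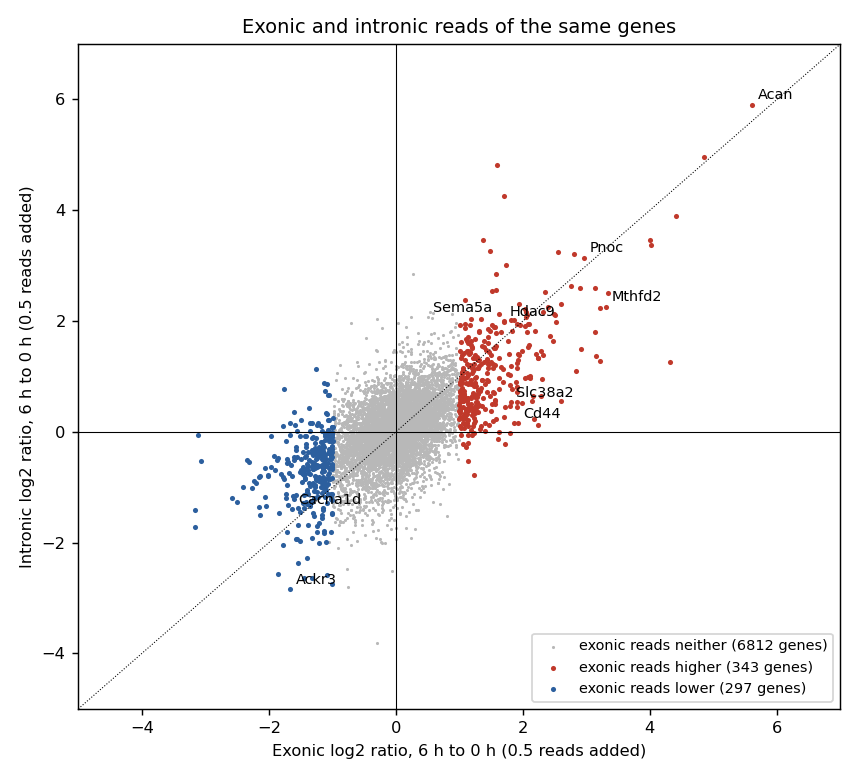
Intronic log2 ratio of 6 h to 0 h (vertical axis) against the exonic log2 ratio (horizontal axis) for 7452 genes measured by both, with genes coloured by their exonic call. Of the higher genes 331 lie above 0 on the intronic axis and 12 below, and of the lower genes 267 lie below 0 and 30 above.

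Intronic and exonic reads moved together at several genes with high intronic counts. Svil, which encodes the actin-binding protein supervillin, had 86, 80 and 621 intronic reads at 0, 1 and 6 h (8.10-fold, 6.45 to 10.3) and 37, 31 and 132 exonic reads (3.37-fold). Hdac9 had 634, 514 and 2240 intronic reads (3.96-fold, 3.63 to 4.33), and Nrp1 had 273, 197 and 978 (4.02-fold, 3.51 to 4.61). In these 3 genes the 6 h count stood far above both others. Tmem255a, a membrane protein gene listed in the files as 6430550H21Rik, had 15, 13 and 151 intronic reads (11.3-fold, 6.63 to 20.7). Ndnf, which encodes a secreted factor and is listed in the files as A930038C07Rik, had 19, 21 and 124 (7.32-fold, 4.49 to 12.6).

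Elsewhere the 2 kinds of reads differed. Sema5a, a transmembrane semaphorin, had 121, 100 and 455 intronic reads (4.22-fold, 3.44 to 5.20) but 129, 121 and 193 exonic reads (1.41-fold, 1.13 to 1.78). Hivep2, a zinc finger factor, had 344, 423 and 1175 exonic reads (3.23-fold, 2.86 to 3.65) beside an intronic ratio of 1.87 (1.66 to 2.10). The opposite case was Akap7, an anchor of protein kinase A, which had 144, 65 and 38 intronic reads (3.38-fold lower, 2.35 to 4.97) and 48, 75 and 51 exonic reads. The exonic interval of Akap7 (0.664 to 1.52) includes 1. Sema5a, Hivep2 and Akap7 were chosen after their values were seen. Ackr3, a scavenger of the chemokine CXCL12 listed in the files as Cxcr7, was lower in both, with 100, 53 and 12 intronic reads (7.43-fold lower, 4.07 to 14.9) and 232, 269 and 77 exonic reads (3.19-fold lower, 2.45 to 4.18).

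Several high-ranking genes belonged to none of the lists. Pnoc, the precursor of the neuropeptide nociceptin (chromosome 14, 66019510 to 66044046), had 41, 57 and 341 exonic reads (7.87-fold, 5.68 to 11.2) and 13, 27 and 106 intronic reads (9.14-fold, 5.12 to 17.7). Npbwr1, a receptor for the neuropeptides B and W, had 4, 6 and 46 (10.9-fold, 3.97 to 41.6). Rerg, a small GTPase of the Ras family, had 7, 8 and 80 (10.8-fold, 5.01 to 27.7), and Eps8, which caps actin filaments, had 95, 119 and 542 (5.40-fold, 4.33 to 6.78). In these 4 genes the 1 h count was closer to that at 0 h than to that at 6 h. Mlf1, whose response element is printed above, had 4, 8 and 57 (13.5-fold, 4.98 to 51.1). On the lower side Arpin, an inhibitor of the Arp2/3 complex listed in the files as 2610034B18Rik, had 46, 41 and 8 (6.08-fold lower, 2.84 to 14.9). Pfn4, a profilin, had 25, 33 and 3 (8.81-fold lower, 2.69 to 45.6), and Zc3h6, a zinc finger protein, had 46, 14 and 10 (4.86-fold lower, 2.42 to 10.8). Of these 3, Arpin and Pfn4 had 1 h counts near those at 0 h, and Zc3h6 was already low at 1 h. Cdk20, a kinase linked to ciliary signalling and listed in the files as Ccrk, had 75, 41 and 22 (3.60-fold lower, 2.22 to 6.09).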

How the data were processed

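The deposited counts are whole numbers of uniquely mapped sense reads per gene in exons and in introns, not normalised by the authors, on mm9 per the submitters' processing notes. Per the file headers and logs, reads were 35 bp with at most 3 mismatches, and no aligner name is given in the sources used here. A coverage signal from the authors, scaled to 10000000 reads, served as an alternative. Genes with near-identical copies are uncertain, and 1534 genes overlap another on their strand.

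Exonic and intronic counts were scaled separately with TMM factors over the 3 libraries (edgeR 4.0.16, R 4.3.3). Ratios carry exact Clopper-Pearson 95% intervals (scipy 1.17.1, Python 3.11.15). A call needed a ratio of at least 2 or at most 0.5, an interval excluding 1, and 20 reads in 1 of the 2 libraries. With 1 library per time no test was run. Log2 ratios used a pseudocount of 0.5 reads. Alternatives were total counts, DESeq2 1.42.0 size factors, coverage, other read minimums and fold limits, and leaving out overlapping genes.

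The members and lists were chosen with earlier results of these data known, and 7 lists were written after their values were seen. At that stage some patterns that had matched unrelated genes were corrected, and Ttc genes with no known ciliary role left the cilium list. Genes were named by rule: up to 4 higher and 4 lower per list by the interval bound nearest 1 (or the extreme members), ranks 16 to 45 higher and 11 to 40 lower by exons, and the first 15 higher and 10 lower by introns. Others are marked as chosen after their values were seen.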

Additional observations from a re-analysis of the deposited data

How the results depend on the processing

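No paired analysis was possible because the labels give no replicate numbers and there is 1 library per time, so no library could be left out either. The calls of 497 higher and 547 lower genes stayed within 1.5 times with other scalings and without overlapping genes. With at least 50 reads, 352 were higher and 235 lower. With the whole interval beyond 2-fold, 196 were higher and 71 lower, and with a limit of 1.5-fold, 1172 and 1334. Of 2 alternatives chosen after seeing the data, counts divided by the reads per distinct position gave 393 higher and 332 lower, and a mean of at least 60 reads gave 256 and 133. With the divided counts 13 of 81 DNA repair genes and 12 of 93 cilium genes were lower. Zinc finger genes had 15 of 318 lower and mitochondrial translation 3 of 94, while 18 of 43 genes of amino acid supply were higher. The 434 higher and 460 lower intronic calls became 254 and 861 with the exonic factors, and 260 and 178 with at least 50 reads. The cause was not tested, except that the stricter rules admit fewer genes by construction. At 50 reads, where 352 and 235 of 7759 genes were called higher and lower, 4 of 40 DNA repair genes and 10 of 62 cilium genes were lower, and 16 of 40 genes of amino acid supply were higher. Among 1008 alternative values of named genes, 951 kept direction and call, 55 lost the call, 2 gained it and 0 reversed. Depth limits the lower genes most, since 414 of the 547 had a mean below 60 reads.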
